A study of Mus musculus with 2 samples.

Results

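The Hox cluster genes were examined as RefSeq protein-coding genes of the mouse build mm10 whose symbol is Hoxa, Hoxb, Hoxc or Hoxd followed by digits. This choice used names only and gave 39 genes of 21887. The members were 11 Hoxa, 10 Hoxb, 9 Hoxc and 9 Hoxd genes, in 4 clusters on chromosomes 6, 11, 15 and 2. DPPA2, which binds DNA in pluripotent cells and germ cells, had been mapped by ChIP-seq, the sequencing of DNA pulled down with a protein from fixed chromatin. The cells were R1/E, a mouse embryonic stem cell line that carried wild-type p53 in both groups and was grown on gelatin with leukemia inhibitory factor. The adriamycin group was 1 library from R1/E cells treated for 8 h with adriamycin, also called doxorubicin, a drug that traps topoisomerases on DNA and so causes breaks. The untreated group was 1 library from the same line without the drug. The study asked where DPPA2 is bound when DNA is damaged. Neither group had a replicate, so there was no test between groups, and each difference is one between 2 libraries.

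Hox genes encode homeodomain transcription factors that give cells their position along the body axis. In each cluster the genes lie in the order in which they are used from head to tail, with the low-numbered genes acting in front and the high-numbered genes behind. In embryonic stem cells the clusters are known as a main territory of Polycomb repression, where repressive and activating histone marks lie on the same promoters. DPPA2 and its partner DPPA4 are known from mouse embryonic stem cells as proteins found at CpG-rich promoters, among them developmental promoters with both kinds of mark. RNA and histone marks were not analysed here.

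The adriamycin list held 16229 peaks on chromosomes 1 to 19, X and Y, and the untreated list 7043. The summit of a peak is its position of highest coverage. The median summit was covered by 14 fragments in both lists. The lowest local background recovered for any peak was 1.03 fragments with adriamycin and 1.19 untreated. These are the minima of each list and not the backgrounds under the median summit. The fold of a peak is the authors' own ratio of summit over local background, and it is used here only to describe and rank peaks within a list.

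DPPA2 peaks lay at the ends of few Hox genes in both libraries, but untreated peaks lay at few gene ends in general. A gene was counted when a summit lay within 1 kb of either of its ends. In the adriamycin list 1 of the 39 Hox genes, Hoxc13, was counted (2.56%, exact Clopper-Pearson 95% interval 0.0649 to 13.5%), against 16.0% of all protein-coding genes. In the untreated list 0 of 39 were counted, which allows a share of up to 7.69% by the limit of 3 counts and up to 9.03% by the exact interval, against 5.78% of all protein-coding genes. No Hox gene was counted in both lists, against 4.51% of all genes, and 11.5% of all genes were counted, like Hoxc13, with adriamycin and not untreated. The interval covers counting error only and takes the genes as separate, whereas they sit in 4 clusters and the windows of 13 of the 39 touch that of another Hox gene. At the shares of all genes, a list of 39 would hold 6.25 such genes with adriamycin and 2.26 untreated. Hox genes are short, with a median length of 3737 bp against 17169 bp for all protein-coding genes. Counted by length instead, the windows around Hox gene ends covered 149.1 kb and held 1 adriamycin and 0 untreated summits. At the density of all gene ends, 41.96 adriamycin and 15.1 untreated summits per Mb, that length would hold 6.26 with adriamycin and 2.26 untreated. With all peaks of the list, the adriamycin count lay under that of all genes on both scales, which count the same single summit. Because the genes sit in 4 clusters, an interval for 39 separate genes does not settle whether they differ from all genes. The untreated count of 0 cannot be told from the untreated background at this number of genes.

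The whole clusters, intergenic stretches included, also held few summits. The 4 spans, each from the lowest start to the highest end of its Hox genes, covered 492.1 kb and held 1 adriamycin summit (2.03 per Mb) and 0 untreated summits. Over the genome used, the density was 6.02 summits per Mb with adriamycin and 2.61 untreated, which for the same length comes to 2.97 summits with adriamycin and 1.29 untreated. The 100 kb on each side of the spans held 5 adriamycin summits (6.25 per Mb) and 2 untreated summits (2.5 per Mb), close to the genome-wide densities. Differences as small as 1 summit against 2.97 with adriamycin, or 0 against 1.29 untreated, were not detectable at these numbers.

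**Figure D1:**
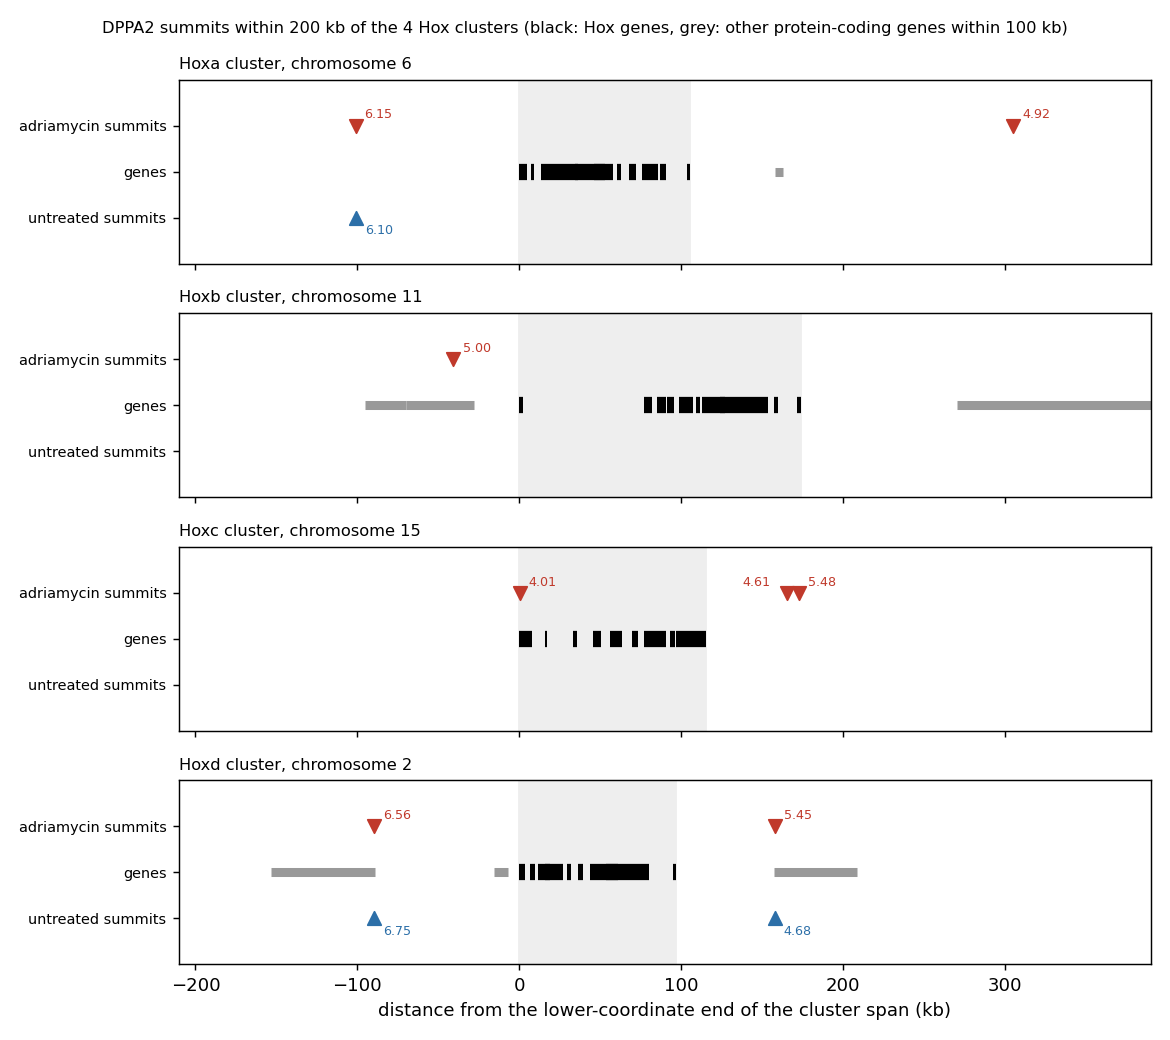
Positions of DPPA2 summits around the Hoxa, Hoxb, Hoxc and Hoxd clusters, with distance in kb from the lower-coordinate end of each span on the horizontal axis. Red triangles are adriamycin summits and blue triangles untreated summits, each with its deposited fold, black bars are Hox genes, grey bars other protein-coding genes that reach within 100 kb, and the shaded band is the span. The single triangle inside a band is the adriamycin summit at Hoxc13, with a fold of 4.01.

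Hoxc13, a posterior gene known in mouse for its part in hair and nail formation, was the single Hox gene with a gene-end peak. The gene lies on chromosome 15, at 102921131 to 102928814, and the adriamycin peak at 102921204 to 102921655. Its summit at 102921497 was inside the gene, 366 bp from the lower-coordinate end. That summit was covered by 10 fragments (exact Poisson 95% interval 4.80 to 18.4) over a local background of 1.74, with a fold of 4.01 and a −log10 q of 2.71. Such a peak is weak within its list. Only 12.4% of adriamycin peaks had a lower fold and 8.78% a lower −log10 q, and the median adriamycin peak at gene ends had 14 fragments and a fold of 4.79. The nearest untreated summit lay 273.5 kb from Hoxc13. The peak was no longer in the adriamycin list when only its strongest 7043 peaks were kept, to equal the untreated list in length, nor at a fold of at least 5 or a q of at most 1e-05, where 0 of 39 Hox genes were counted. Under these settings 5.72%, 6.94% and 7.12% of all genes were counted with adriamycin, in the same order, all under the 7.69% that a count of 0 allows, so the adriamycin count could then not be told from that of all genes.

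The rest of the Hoxc cluster had no summit inside it. Its span, chromosome 15 from 102921131 to 103036856, also holds Hoxc4 to Hoxc6 and Hoxc8 to Hoxc12. From Hoxc13 onward the next adriamycin summits were at 103086775 and 103093933, 49.9 and 57.1 kb beyond the Hoxc4 end of the span. They were covered by 13 and 15 fragments, with folds of 4.61 and 5.48. Both lay between genes on the side of the lncRNA gene Gm28876, the second at 1253 bp from it, just outside the gene-end window. No untreated peak overlapped either. For the 8 Hoxc genes other than Hoxc13 the nearest adriamycin summit was 15.3 to 74.9 kb away and the nearest untreated summit 289.2 to 370.5 kb away. Hoxc12, next to Hoxc13, was the nearest of the 8 in both lists.

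The Hoxd cluster lay between 2 peaks that were called in both lists, with none inside. Its span, chromosome 2 from 74668225 to 74765142, runs from Hoxd13, known in mouse for digit development, to Hoxd1. Beyond the Hoxd13 side lay the peak at Lnpk, which encodes a protein of endoplasmic reticulum junctions. The adriamycin peak at 74578459 to 74579032 had 15 fragments and a fold of 6.56, and the untreated peak at 74578542 to 74578958 had 16 fragments and a fold of 6.75. Both summits also lay within 1 kb of the lncRNA gene 4930445N08Rik, at 288 bp with adriamycin and 256 bp untreated, so one peak serves both gene ends. Beyond the Hoxd1 side lay the peak at Mtx2, which encodes a mitochondrial outer membrane protein. It was at 74825783 to 74826261 with adriamycin (16 fragments, fold 5.45) and at 74825733 to 74826256 untreated (12 fragments, fold 4.68). The Poisson intervals of the fragments overlapped at both genes. At Lnpk they were 8.40 to 24.7 with adriamycin and 9.15 to 26.0 untreated. At Mtx2 they were 9.15 to 26.0 with adriamycin and 6.20 to 21.0 untreated. Fragments are not scaled between libraries, so this overlap does not compare the strength of binding. Between these peaks 247.3 kb with adriamycin and 247.4 kb untreated had no summit, a stretch that holds all 9 Hoxd genes and Evx2, a homeobox gene beside Hoxd13.

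The promoters of that stretch are printed here to set the 2 with a peak in both lists beside the outermost Hoxd promoters, which had none. Each is the RefSeq window of GRCm38.p6 (mm10) from 250 bases before the start to 50 from it onward, 5′ to 3′ on the gene's own strand. Capitals mark CpG, the pair that the windows are compared by below. The Lnpk window is chr2:74578899-74579198 on the minus strand, and the other windows are on the plus strand, Hoxd13 at chr2:74667975-74668274, Hoxd1 at chr2:74762730-74763029 and Mtx2 at chr2:74825562-74825861.
Lnpk: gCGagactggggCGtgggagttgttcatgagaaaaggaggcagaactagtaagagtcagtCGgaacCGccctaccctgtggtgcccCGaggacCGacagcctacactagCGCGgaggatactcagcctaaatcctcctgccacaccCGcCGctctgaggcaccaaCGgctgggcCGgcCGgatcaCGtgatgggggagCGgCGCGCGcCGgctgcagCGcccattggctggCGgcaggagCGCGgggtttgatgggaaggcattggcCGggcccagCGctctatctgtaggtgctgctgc
Hoxd13: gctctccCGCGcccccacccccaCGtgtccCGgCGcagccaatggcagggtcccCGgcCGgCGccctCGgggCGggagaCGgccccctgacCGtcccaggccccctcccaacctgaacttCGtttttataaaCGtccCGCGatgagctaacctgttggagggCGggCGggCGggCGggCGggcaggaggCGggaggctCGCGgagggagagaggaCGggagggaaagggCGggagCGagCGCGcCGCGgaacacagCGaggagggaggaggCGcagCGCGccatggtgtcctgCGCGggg
Hoxd1: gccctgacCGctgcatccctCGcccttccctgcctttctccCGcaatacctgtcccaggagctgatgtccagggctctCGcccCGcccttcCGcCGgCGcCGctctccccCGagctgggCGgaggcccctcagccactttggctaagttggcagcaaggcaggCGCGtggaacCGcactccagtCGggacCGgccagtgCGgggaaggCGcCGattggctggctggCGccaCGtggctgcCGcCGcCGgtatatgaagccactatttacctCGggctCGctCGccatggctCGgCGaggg
Mtx2: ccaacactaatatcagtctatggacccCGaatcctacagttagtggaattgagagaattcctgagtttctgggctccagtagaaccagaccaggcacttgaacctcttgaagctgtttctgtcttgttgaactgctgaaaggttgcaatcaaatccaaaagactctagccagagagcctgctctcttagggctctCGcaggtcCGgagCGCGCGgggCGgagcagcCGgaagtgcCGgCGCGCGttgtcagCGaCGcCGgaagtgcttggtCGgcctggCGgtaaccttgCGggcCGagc
The outermost Hoxd windows had more CpG pairs than the windows at Lnpk and Mtx2, but the 10 Hoxd windows of the table varied, from 4 to 37 pairs, and 5 of them had a ratio under 0.6. Hoxd13 had 37 CpG pairs and Hoxd1 29, against 25 at Lnpk and 19 at Mtx2. No other Hoxd window had as many pairs as Hoxd1. The ratio of observed CpG to the number expected from the window's C and G was 0.904 at Hoxd13 and 0.805 at Hoxd1, against 0.782 at Lnpk and 0.801 at Mtx2. From the Hoxd13 start the nearest summit was 89.5 kb away with adriamycin and 89.4 kb untreated, and from the Hoxd1 start 63.1 kb with adriamycin and 63.2 kb untreated. The corresponding distances were 192 bp with adriamycin and 160 bp untreated at Lnpk, and 257 bp with adriamycin and 383 bp untreated at Mtx2. These summits lay inside the genes, past the last base of the printed windows. The peaks reach into the windows, but the printed bases are not those under the summits.

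The Hoxa cluster had no summit inside its span or within 100 kb of it in either list. The cluster lies on chromosome 6, and its span ends at 52260880 with Hoxa13, which acts in limbs and the urogenital tract. The nearest summits on the side away from Hoxa13 were at 52054301 with adriamycin (15 fragments, fold 6.15) and at 52054433 untreated (19 fragments, fold 6.10), in overlapping peaks. They lay between genes, 41752 bp with adriamycin and 41884 bp untreated from Skap2, which encodes an adaptor of Src family kinases. On the Hoxa13 side the nearest adriamycin summit was 199.6 kb away, with 11 fragments and a fold of 4.92, and the nearest untreated one 864.4 kb away. Evx1, the homeobox gene beside Hoxa13, had no gene-end summit in either list.

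The Hoxb cluster, chromosome 11 from 96194316 to 96368254, was empty in both lists and had 1 summit within 100 kb, with adriamycin. That summit was at 96153757, inside Ttll6, which encodes a tubulin-modifying enzyme, and 12425 bp from an end of that gene. It had 13 fragments and a fold of 5.00 and lay 40.6 kb outside Hoxb13. On the other side, beyond the Hoxb1 end, the next adriamycin summit was 466.4 kb away. In the untreated list the nearest summits were 1223 kb beyond the Hoxb13 end and 783.2 kb beyond the Hoxb1 end, so that the 10 Hoxb genes sat in a stretch of 2180 kb without a summit.

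The Hox spans also hold non-coding genes. Of the 31 other RefSeq genes that lie wholly inside a span, 24 lncRNA genes, 6 miRNA genes and 1 other, 0 had a summit within 1 kb of an end in either list. Genome-wide, 6.06% of lncRNA genes with adriamycin and 2.21% untreated had one, and 4.40% of miRNA genes with adriamycin and 1.79% untreated, so a count of 0 cannot be told from these shares at 31 genes. Among the 31 are Hotair in Hoxc, Hotairm1 in Hoxa, Haglr in Hoxd, and the miRNA genes Mir10a, Mir10b, Mir196a-1, Mir196a-2, Mir196b and Mir615, several of which are known to act on Hox transcripts.

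Taken gene by gene, the median Hox gene lay farther from a summit than the median of all genes, but the clusters differed. Untreated, the median Hoxd gene was 97.0 kb from a summit, close to the median of all genes. The median Hox gene was 114.8 kb from the nearest adriamycin summit, against 24.7 kb for all protein-coding genes, and 204.4 kb from the nearest untreated summit, against 93.2 kb. With adriamycin 37 of the 39 Hox genes were farther from a summit than the median gene, the exceptions being Hoxc13 and Hoxc12. Untreated, 36 of 39 were, all but Hoxd13, Hoxd3 and Hoxd1. Genes of a cluster share their nearest summits, so these are 4 observations rather than 39. From Hoxa2 to Hoxa13 the adriamycin distances were 108.1 to 199.6 kb and the untreated 108.0 to 204.4 kb, and within Hoxd 60.9 to 119.0 kb with adriamycin and 61.1 to 119.0 kb untreated, nearly the same in both lists. Within Hoxb they were 40.6 to 212.0 kb with adriamycin and 783.2 to 954.8 kb untreated.

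**Figure D2:**
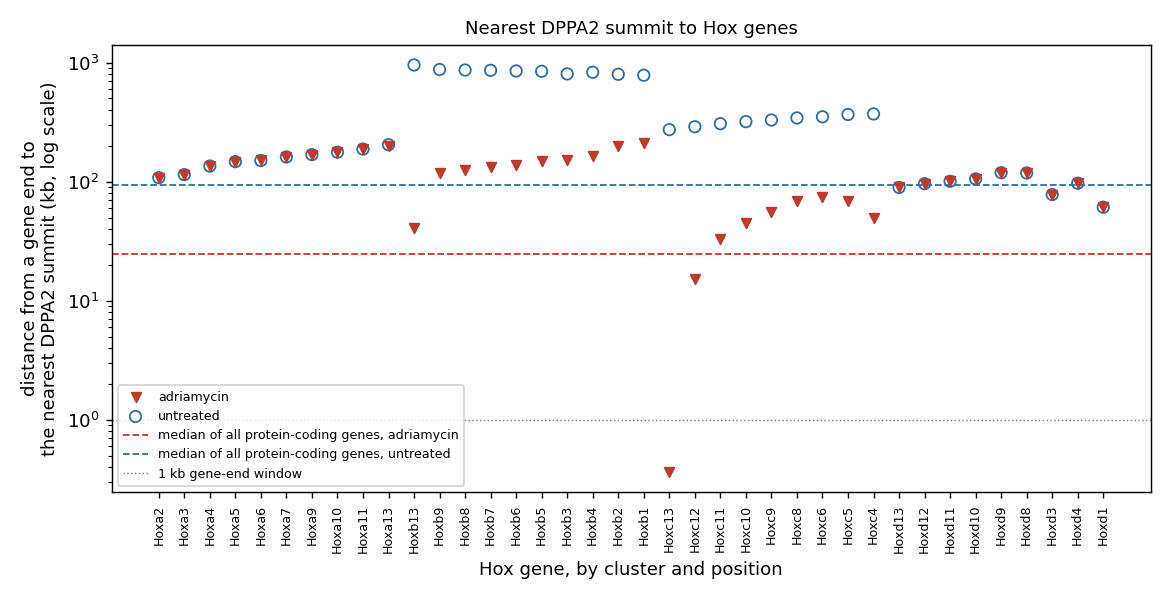
Distance in kb, on a log axis, from an end of each Hox gene shown to the nearest DPPA2 summit with adriamycin (red triangles) and untreated (blue circles). Dashed lines are the medians of all protein-coding genes, 24.7 kb with adriamycin and 93.2 kb untreated, and the dotted line is the 1 kb window. Hoxc13 with adriamycin is the single point under the dotted line, at 0.366 kb, and the points of the 2 lists nearly coincide at Hoxa and Hoxd.

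Empty stretches of this size were common in the genome as a whole and less so among gene-rich stretches. The gap around Hoxa was 406.1 kb with adriamycin and 1071 kb untreated, and 41.5% of the length between adriamycin summits and 34.0% of that between untreated summits lay in gaps at least that long. For the Hoxb gaps the shares were 22.3% with adriamycin (680.9 kb) and 12.5% untreated (2180 kb). At Hoxc, where the adriamycin stretch holds the Hoxc13 summit, the untreated gap of 764.4 kb had a share of 50.0%. For the Hoxd gaps they were 61.7% with adriamycin (247.3 kb) and 86.9% untreated (247.4 kb). Cut into consecutive windows of a cluster's length, 42.0% of the genome's windows held an adriamycin summit and 21.8% an untreated one at the Hoxa length. The adriamycin shares were 56.9% at the Hoxb, 44.6% at the Hoxc and 39.6% at the Hoxd length, and the untreated shares 32.5%, 23.5% and 20.3% in the same order. Hox clusters, however, hold 9 to 11 protein-coding genes each. Among windows with at least 5 such genes, a limit set after seeing the values, the adriamycin shares were 68.8% at the Hoxa, 79.5% at the Hoxb, 69.7% at the Hoxc and 65.1% at the Hoxd length. The untreated shares were 37.2%, 47.7%, 38.9% and 33.6% in the same order. Set beside these, a summit was held by 1 of the 4 Hox spans with adriamycin and by 0 of 4 untreated. With only 4 spans these counts cannot be told from such shares, and no test was made.

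DPPA2 summits were more frequent at promoters with more CpG over all windows, and the Hox windows that could be examined had none. The RefSeq table used held 24 windows for 22 of the 39 Hox genes and 21263 windows in all. Hoxc13, the Hox gene with a gene-end summit, is not among the 22. Within 1 kb of the start a summit lay at 0 of the 24 Hox windows in either list, against 15.0% of all windows with adriamycin and 5.60% untreated. Hox windows had a median CpG ratio of 0.626, with a range of 0.257 at Hoxd11 to 1.02 at Hoxa5. The median was 0.567 over all windows, 0.823 for windows with an adriamycin summit and 0.823 for those with an untreated summit. Of the 24 Hox windows 12 had a ratio of at least 0.6, the range in which 24.8% of all windows had an adriamycin summit and 9.18% an untreated one. Taking each Hox window at the share of all windows of its own CpG range, 4.15 of 24 would have had an adriamycin summit and 1.56 an untreated one. An untreated count of 0 cannot be told from 1.56 at 24 windows. The 24 windows were 10 of Hoxa, 3 of Hoxb, 1 of Hoxc and 10 of Hoxd, and those of a cluster are not independent. The adriamycin count of 0 beside 4.15 thus rests mostly on Hoxa and Hoxd and was not tested.

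**Figure D3:**
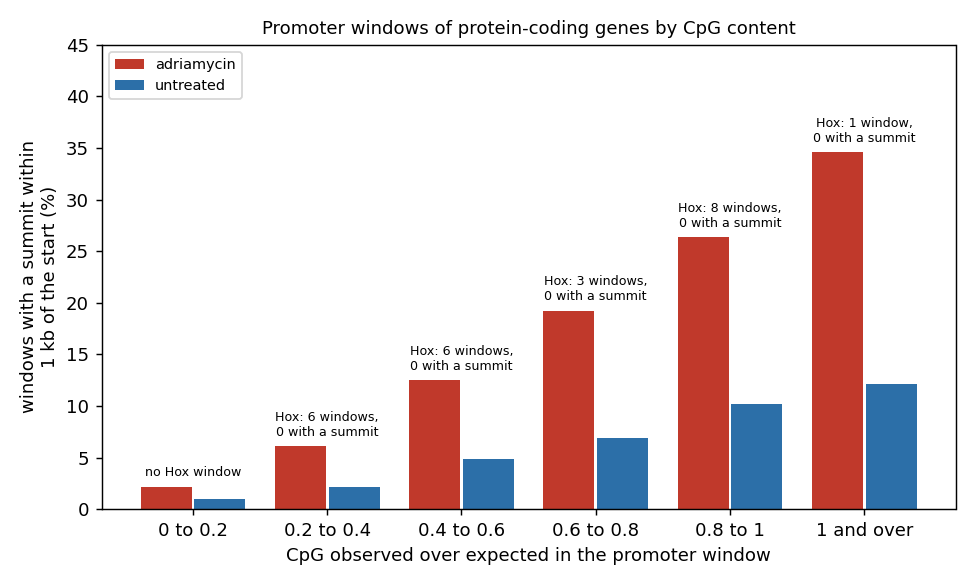
Share of promoter windows with a DPPA2 summit within 1 kb of the start (vertical axis, percent), by the window's ratio of observed to expected CpG (horizontal axis), for adriamycin (red) and untreated (blue). The share climbs from 2.17% to 34.6% with adriamycin across the CpG ranges, and the number of Hox windows is written over each pair of bars. The 24 Hox windows had 0 summits, the lowest range holds no Hox window, and Hoxc13 has no window in the table.

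Short letter motifs were then searched on both strands of the 24 windows. CGCG was present in 15 of the 24 Hox windows (62.5%), against 49.2% of all windows and 81.1% of those with an adriamycin summit. TAAT, the core letters that many homeodomains bind, was present in 19 (79.2%), against 51.8% of all windows and 31.7% of those with an adriamycin summit. The p53 decamer, the unit of the sites that p53 binds, was present in 3 (12.5%; Hoxa11, Hoxd4 and Hoxd10), against 7.37% of all windows and 6.21% of those with an adriamycin summit. These are letter matches in 300 bases and not binding sites.

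Lists of genes that act with or on the Hox clusters are read against the 16.0% of all genes counted with adriamycin and the 5.78% untreated. Polycomb genes were the only list of these whose adriamycin interval lay above that share. The lists were chosen with earlier results of these data known, and the intervals take no account of their number. CpG content was not matched here. Among promoter windows with a CpG ratio of at least 0.6, 24.8% had an adriamycin summit, a share inside the Polycomb interval. Of 9 genes for Hox cofactors 1 had a gene-end summit in each list, Pbx3, which encodes a homeodomain partner of Hox proteins (fold 6.45 with adriamycin, 4.49 untreated). Of 40 other homeobox genes of the ANTP class, to which Hox genes belong, 9 did with adriamycin (22.5%) and 2 untreated (5.00%). Gbx2 and Hhex were counted in both lists. Their folds were 5.06 and 3.93 with adriamycin, and 4.37 and 3.61 untreated. Folds are not scaled between libraries, so in this paragraph those of the 2 lists are not compared. Vax2 (5.31), Barx2 (4.66), Lbx1 (4.14), Lbx2 (4.01) and Gbx1 (3.98) were the strongest of those counted with adriamycin and not untreated. The 6 genes of the ParaHox and Cdx list had none. Of 28 Polycomb genes, whose products keep Hox genes silent, 10 did with adriamycin (35.7%, interval 18.6 to 55.9%) and 3 untreated (10.7%). Ezh2, the methyltransferase of Polycomb complex PRC2, Rnf2, the ubiquitin ligase of PRC1, and Pcgf5 were counted in both lists. Ezh2 had a fold of 4.79 with adriamycin and 5.52 untreated, and Rnf2 had 5.49 with adriamycin and 5.26 untreated. Eed, Phc3, Yaf2, Phc1 and Rybp were the strongest of those counted with adriamycin and not untreated, with folds of 4.55, 4.48, 4.44, 4.26 and 4.20. Of 12 Trithorax and MLL genes, whose products keep Hox genes active, 3 did with adriamycin and 2 untreated. They were Psip1 (7.28 with adriamycin, 5.88 untreated), Kmt2c (6.21 with adriamycin, 3.82 untreated) and, with adriamycin, Wdr5 (5.14). Of 15 genes for retinoic acid, a signal that switches Hox genes on, Rdh10, Cyp26b1 and Aldh1a3 did with adriamycin and 0 untreated. No difference between these lists and the Hox genes was tested.

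**Figure D4:**
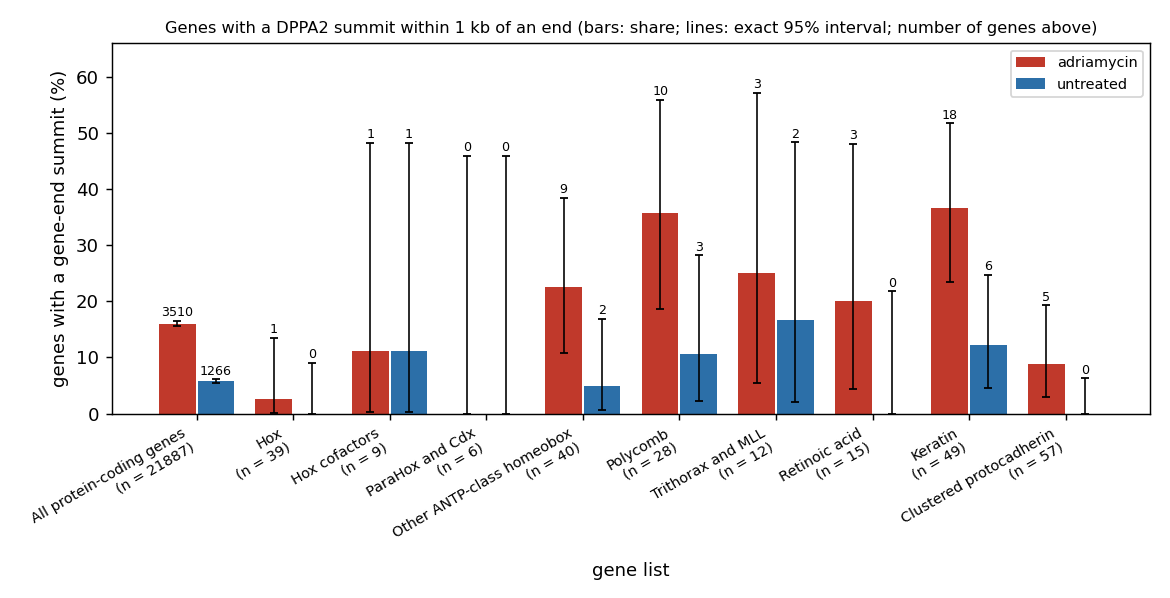
Share of genes in each list with a DPPA2 summit within 1 kb of an end (vertical axis, percent), with adriamycin (red) left of untreated (blue), exact 95% intervals as lines and the number of genes above. Hox genes stand at 2.56% with adriamycin and 0 untreated, beside 16.0% of all protein-coding genes with adriamycin and 5.78% untreated.

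The keratin and clustered protocadherin families held more summits per Mb than the Hox spans, a difference that was not tested. No other tandem families were taken, and these were chosen with earlier results of these data known. Their clusters also stood above the genome-wide 6.02 summits per Mb with adriamycin and 2.61 untreated. They therefore do not stand for tandem families in general. On chromosome 11, which also carries Hoxb, the keratin cluster of 25 genes (1037 kb) held 26 adriamycin and 9 untreated summits, 25.1 per Mb with adriamycin and 8.68 untreated. On chromosome 15, which also carries Hoxc, that of 24 genes (683.7 kb) held 20 adriamycin summits (29.3 per Mb) and 9 untreated summits (13.2 per Mb). The clustered protocadherins, 57 genes over 911.6 kb, held 23 adriamycin summits (25.2 per Mb) and 3 untreated summits (3.29 per Mb). The Hox spans stood at 2.03 per Mb with adriamycin and 0 untreated, where a count of 0 allows up to 6.10 per Mb by the limit of 3 counts, above the untreated protocadherin density. By gene ends the protocadherins were sparse too, with a summit at 5 of 57 genes with adriamycin (8.77%, interval 2.91 to 19.3%) and at 0 of 57 untreated, against 16.0% of all genes with adriamycin and 5.78% untreated. Of the 49 keratin genes 18 had one with adriamycin (36.7%) and 6 untreated (12.2%).

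Of the 6 adriamycin peaks in the spans and the 100 kb around them 2 (33.3%) were overlapped by an untreated peak, against 34.4% of all adriamycin peaks. Both untreated peaks there were overlapped by an adriamycin peak, against 79.7% of all untreated peaks. The lists differ in length, 16229 adriamycin and 7043 untreated peaks, so each share is read against its own list.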

How the data were processed

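DPPA2 ChIP-seq was analysed from 2 peak lists, 1 per library, adriamycin and untreated. MACS3 3.0.0b1, Bowtie2 2.5.1, SAMtools, deepTools 3.5.1, FastQC 0.12.1 and the build mm10 are named in the submitters' processing notes. For the calling command and any input control, the sources used here give nothing. The adriamycin sample's genotype field holds its treatment, so its group came from its title. For each peak the authors deposited a fold enrichment, that is, a ratio of summit over local background that is not scaled between libraries. They also deposited −log10 p and −log10 q values and a score made from −log10 q.

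Peaks of chromosomes 1 to 19, X and Y were placed by summit, the peak start plus the deposited offset. Gene ends came from RefSeq GRCm38.p6. This table gives no strand, so either end counted, and strand came from the promoter table for 22 Hox genes. Fragments at a summit were recovered as the whole number that gives both the fold, with a pseudocount of 1, and −log10 p within 0.001. This succeeded for 99.9% of peaks in both lists and was checked on made-up peaks. Intervals are exact, a count of 0 is given the limit of 3 counts, and both cover counting error only. The scripts ran scipy 1.17.1, pandas 2.3.3 and numpy 2.4.6 under Python 3.11.15. The members, lists and settings were chosen with earlier results of these data known. Named genes are every Hox gene and every gene within 100 kb of a span with a gene-end summit, and in other lists the members counted in both lists plus up to 5 of the strongest others by adriamycin fold. The keratin and protocadherin families are given as counts. One Hox gene is included in the counts but not reported by itself here.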

Additional observations from a re-analysis of the deposited data

How the results depend on the processing

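The untreated count of 0 Hox genes and 0 summits in the spans was the same under all alternatives tried for it. Most of these could not have raised it. A stricter q or fold and a window of 500 bp only remove peaks or area, and equal length leaves the untreated list as it is. The settings that could have raised it, a window of 2500 bp for genes and any base of the peak, also gave 0. The adriamycin count of 1, for Hox genes and for summits in the spans, was 0 at a q of at most 1e-05, 0 at a fold of at least 5 and 0 with lists of equal length. The count of Hox genes was also 0 when only transcription starts were used, since Hoxc13 is not among the 22 Hox genes with a start in the table. The share of all genes with adriamycin under these 4 settings was 7.12%, 6.94%, 5.72% and 15.8%. The first 3 lie under the 7.69% that 0 of 39 allows, so the adriamycin count cannot be told from the share of all genes there. With transcription starts only, 0 of 22 Hox genes stood against 15.8%, with Hoxc13 left out by the table and not by its peak. The count of Hox genes stayed 1 with windows of 500 or 2500 bp, and both counts stayed 1 when any base of the peak counted. Within 100 kb of the spans, the 5 adriamycin summits became 3 at a q of at most 1e-05, 3 with lists of equal length and 2 with a flank of 50 kb. They were 4 at a fold of at least 5 and 7 with a flank of 200 kb. The 2 untreated summits became 1 at a q of at most 1e-05, 1 at a fold of at least 5 and 0 with a flank of 50 kb. They were 3 with a flank of 200 kb. Stricter lists hold fewer peaks and a shorter flank covers less length, so these counts are not compared with the main ones. The 2 neighbouring peaks called in both lists became 1 at a q of at most 1e-05 and 1 at a fold of at least 5, counted in either list. With 1 library per group no replicate could be left out. No paired analysis was possible because the groups share fewer than 2 replicate numbers. The main limits are the small number of clusters, summits of few fragments, and no input profile among the files used here.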

Other observations

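Of the 24 genes other than Hox genes that reach within 100 kb of a span without lying inside it, 3 had a summit within 1 kb of an end in both lists, all of them beside Hoxd: Lnpk, 4930445N08Rik and Mtx2. Lnpk and 4930445N08Rik share 1 peak in each list. By type, they were 2 of 7 protein-coding genes and 1 of 11 lncRNA genes. Genome-wide, 4.51% of protein-coding genes were counted in both lists. For lncRNA genes the shares were 6.06% with adriamycin and 2.21% untreated. The numbers are small and no test was made.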
